A study of Mus musculus with 12 samples.

Results

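Mouse gastric organoids kept with any of 3 bacterial species shared a set of 1817 genes, out of 25759 listed and 12805 tested, that lay on the same side of the untreated level in every treated library. A gene was included where each of the 9 treated libraries lay above, or each lay below, all 3 untreated libraries in CPM (library-scaled counts) adjusted by the trimmed mean of M-values (TMM), the default scaling of edgeR. Genes of a list of 74 pancreatic acinar and islet genes were set aside. The set holds 924 genes that were higher and 893 that were lower in all treated libraries, against a background of 7.22% and 7.19% of all tested genes on those sides when the pancreatic genes are counted too. Over all listed genes, 945 lay above and 917 below, and the rest of these did not pass the filter on low counts.

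The organoids are epithelial structures grown from mouse stomach in gel. The groups were organoids given Fusobacterium nucleatum, an anaerobe of the mouth, Helicobacter pylori, which colonises the stomach, or Neisseria subflava, a commensal of the mouth and throat, and organoids left untreated, with 3 libraries in each. Contact with bacteria lasted 4 h, and all organoids, controls included, had been moved at first passage onto gel in medium without growth factors or antibiotics. No strain, sex or age of the mice is given in the labels, and nothing there says whether the libraries of a group came from separate animals or cultures, so that p-values measure the spread between these libraries only.

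Epithelial cells read their surroundings through a few transcription factors whose targets can be followed in RNA. When oxygen is short, the prolyl hydroxylases no longer mark hypoxia-inducible factor for destruction, and it switches on genes of glycolysis, glucose uptake and vessel growth. The aryl hydrocarbon receptor binds small aromatic molecules, bacterial metabolites among them, and drives the cytochromes P450 of family 1 together with its own repressor. The integrated stress response slows translation by phosphorylating an initiation factor and lets the factors ATF4 and CHOP be made, while NF-kB answers microbial products and cytokines.

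Promoters of 6 genes are shown here because their genes stand for these pathways in the results that follow and each holds a match to the motif searched for its pathway. The sequences are those of RefSeq on GRCm38.p6, from 250 bases before to 50 bases after the annotated start, read 5′ to 3′ on the gene's strand, with the match in capitals. They are Ahrr (chr13:74292282-74292581, minus strand), Bnip3 (chr7:138909457-138909756, minus), Egln3 (chr12:54203825-54204124, minus), Chac1 (chr2:119350992-119351291, plus), Trib3 (chr2:152344011-152344310, minus) and Nfkbia (chr12:55492598-55492897, minus).
Ahrr: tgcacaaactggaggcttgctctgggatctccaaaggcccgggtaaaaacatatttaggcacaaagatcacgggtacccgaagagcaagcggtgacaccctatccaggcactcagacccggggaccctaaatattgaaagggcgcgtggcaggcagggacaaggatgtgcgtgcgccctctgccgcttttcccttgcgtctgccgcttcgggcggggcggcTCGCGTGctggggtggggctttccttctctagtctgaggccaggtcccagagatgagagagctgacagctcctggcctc
Bnip3: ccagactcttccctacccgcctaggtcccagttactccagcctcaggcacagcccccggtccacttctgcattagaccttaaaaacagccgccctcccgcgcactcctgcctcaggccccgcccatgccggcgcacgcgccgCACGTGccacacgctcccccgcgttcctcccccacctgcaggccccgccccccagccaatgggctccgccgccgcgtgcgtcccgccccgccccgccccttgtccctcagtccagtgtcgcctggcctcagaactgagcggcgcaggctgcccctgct
Egln3: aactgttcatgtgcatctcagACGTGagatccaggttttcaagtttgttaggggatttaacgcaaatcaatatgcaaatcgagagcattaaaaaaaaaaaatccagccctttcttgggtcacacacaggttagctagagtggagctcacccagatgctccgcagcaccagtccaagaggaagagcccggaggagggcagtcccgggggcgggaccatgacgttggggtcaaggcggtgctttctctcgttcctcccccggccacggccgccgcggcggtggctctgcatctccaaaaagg
Chac1: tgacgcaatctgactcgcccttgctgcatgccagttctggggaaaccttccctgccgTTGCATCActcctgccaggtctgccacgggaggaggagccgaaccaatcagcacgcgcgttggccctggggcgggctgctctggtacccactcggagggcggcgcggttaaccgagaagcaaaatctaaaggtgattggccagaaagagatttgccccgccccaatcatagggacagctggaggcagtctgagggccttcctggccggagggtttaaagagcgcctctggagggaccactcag
Trib3: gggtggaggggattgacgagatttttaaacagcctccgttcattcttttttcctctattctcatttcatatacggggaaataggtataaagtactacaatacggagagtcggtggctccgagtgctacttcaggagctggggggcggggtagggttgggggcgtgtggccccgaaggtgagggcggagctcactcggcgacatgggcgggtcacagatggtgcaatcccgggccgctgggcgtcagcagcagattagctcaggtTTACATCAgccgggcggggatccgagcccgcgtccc
Nfkbia: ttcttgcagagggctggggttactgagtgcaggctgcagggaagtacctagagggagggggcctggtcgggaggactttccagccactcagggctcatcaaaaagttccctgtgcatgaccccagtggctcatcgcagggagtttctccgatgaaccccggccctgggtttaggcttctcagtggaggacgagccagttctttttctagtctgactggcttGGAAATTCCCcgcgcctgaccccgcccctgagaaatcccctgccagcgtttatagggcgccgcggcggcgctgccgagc
In Ahrr the capitals mark a match to the aryl hydrocarbon receptor core TNGCGTG, whose first base lies 29 bases before the start. Bnip3 and Egln3 hold the hypoxia core ACGTG. The 2 matches in Bnip3 overlap, 1 on each strand, because the site reads CACGTG, which is also the E-box searched separately. Chac1 and Trib3 hold TGATGNAA, the composite element of ATF4 and CHOP, on the opposite strand, in Chac1 upstream and in Trib3 downstream of the start. Nfkbia holds the NF-kB consensus on the opposite strand, 29 bases before the start. A match is a stretch of letters and not a measured binding site.

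Total counts ran from 16955155 to 23236260, and mitochondrially encoded genes took 4.5% to 5.18% of them. Epithelial markers were abundant in every library (Epcam at 722 to 816 TPM, Krt8 at 4920 to 5940 TPM), and the surface mucous cell gene Tff1 stood at 7910 to 10700 TPM. Of the parietal cell list, Atp4b had 0 counts throughout. Others of that list were found, with Atp4a at 1.52 to 2.73 TPM, Kcnq1 at 25.4 to 35.3 TPM and Clic6 at 56.6 to 79.8 TPM, and Kcnq1 was lower in all treated libraries. Of genes of other cell types, the pan-leukocyte gene Ptprc stood at 0.112 to 1.02 TPM, the endothelial gene Pecam1 at up to 0.331 TPM and the fibroblast gene Col1a1 at 0.306 to 1.47 TPM. The summed level of 11 leukocyte genes was 205 to 210 TPM without bacteria, 104 to 105 TPM with Fusobacterium, 203 to 217 TPM with Helicobacter and 283 to 286 TPM with Neisseria, and none of the 4 tested was in the set. Most of that sum came from Cd14, at 176 to 186 TPM without bacteria, 54.8 to 60 TPM with Fusobacterium, 177 to 191 TPM with Helicobacter and 248 to 254 TPM with Neisseria, and from Cd68, at 21.9 to 43.1 TPM over all libraries. Of 10 tested squamous genes, 4 (Krt13, Krt4, Lor and Krt15) were lower in all treated libraries and 0 higher. The part of the leukocyte and squamous genes in the results was not tested. Over 72 listed pancreatic genes, the untreated libraries held 6720 to 7406 counts and Helicobacter replicate 1 held 6289, whereas the other 8 libraries held 2175 to 3121. Of the 41 tested, 28 lay below in all treated libraries and 1, Kcnj11, lay above, and these are not described further. Among these 28, Helicobacter replicate 1 lay nearer to the untreated mean than to the mean of the other Helicobacter libraries in 71.4% of cases. The same held for 9.97% of the 893 lower genes and 8.23% of the 924 higher genes described here. Without that library 918 of the 924 and 892 of the 893 genes were kept by the rule. With fewer treated libraries the rule is easier to meet, so that these counts were largely fixed in advance. Nothing is read from them. In bulk RNA, fewer cells of a type and less RNA per cell cannot be told apart.

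Because the rule compared these libraries with the untreated ones, the sizes of change against untreated organoids are given as descriptions and carry no p-values of their own. Of the 924 higher genes, 622 also passed an adjusted p of 0.05 in edgeR's quasi-likelihood test in each of the 3 comparisons with untreated organoids (background 5.08%), and of the 893 lower genes 480 did (background 4.09%). The rule largely fixes these counts, and nothing is read from them. At least a 2-fold change with each bacterium in addition was reached by 68 higher and 17 lower genes (background 0.562% and 0.195%). The comparisons share their untreated libraries, so that passing in one is not independent of passing in another.

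**Figure D1:**
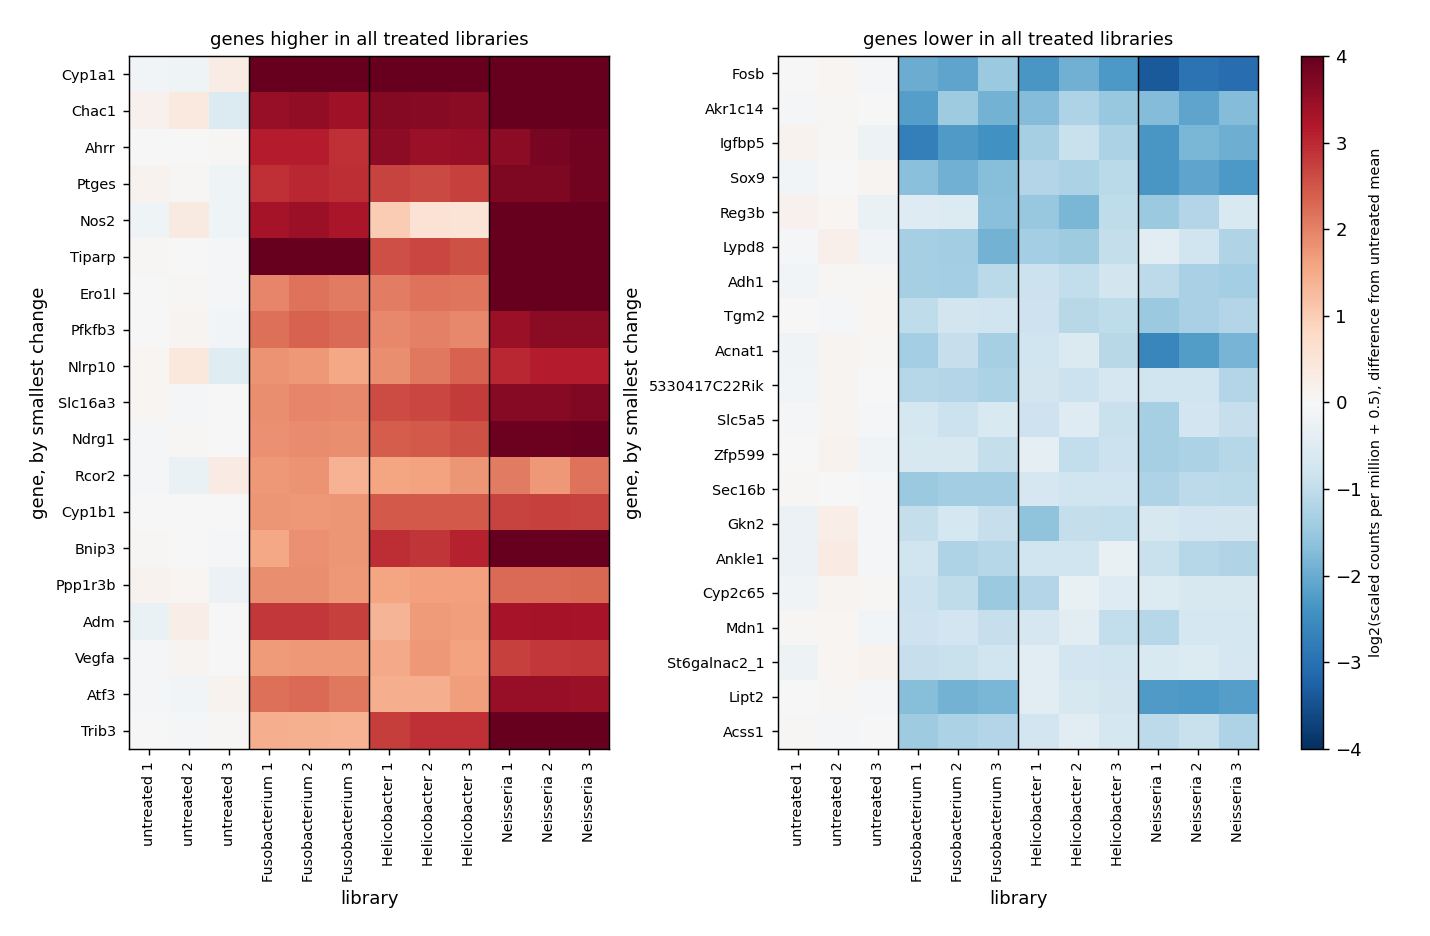
Each cell shows log2(TMM-scaled CPM + 0.5) in a library minus the mean of the 3 untreated libraries, for 19 higher and 20 lower genes with the largest smallest-change over the bacteria and a mean of at least 5 TPM in the higher group; the colour scale ends at -4 and 4. The 9 treated columns have one colour in each row, palest in Helicobacter for Nos2 and darkest in Neisseria for genes such as Ndrg1, Bnip3 and Trib3.

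Genes of the aryl hydrocarbon receptor headed the higher set. Cyp1a1, the cytochrome P450 by which activity of the receptor is usually followed (ENSMUSG00000032315, chromosome 9, 57687928 to 57703824 on GRCm38), stood at 0.218, 0.192 and 0.411 TPM in the untreated libraries. It stood at 155, 157 and 163 TPM with Fusobacterium, 40.1, 46.7 and 42.5 TPM with Helicobacter and 97.6, 100 and 99.7 TPM with Neisseria. The 4 groups did not overlap. Ahrr, the repressor of the receptor, went from 0.808, 0.814 and 0.842 TPM to 9.27, 9.37 and 8.01 TPM with Fusobacterium, 11.7, 11.2 and 10.5 TPM with Helicobacter and 10.5, 12.8 and 13.6 TPM with Neisseria. Here the order was another one: Fusobacterium gave the lowest treated values, and Helicobacter and Neisseria overlapped, with a log2 difference of -0.24 (-0.42 to -0.06, edgeR adjusted p = 0.0382). Tiparp, an ADP-ribosyltransferase that also holds the receptor back, was at 9.58 to 10.7 TPM without bacteria and at 185 to 191, 55.9 to 64.6 and 208 to 230 TPM with Fusobacterium, Helicobacter and Neisseria. Cyp1b1, a second cytochrome of the family, was at 73.7 to 76.6 TPM without bacteria and at 256 to 262, 372 to 406 and 412 to 440 TPM in the same order.

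The log2 changes of these 4 genes with Fusobacterium, Helicobacter and Neisseria were 9.11 ± 0.11, 7.36 ± 0.12 and 8.67 ± 0.11 for Cyp1a1 and 3.40 ± 0.13, 3.86 ± 0.13 and 4.10 ± 0.13 for Ahrr (± standard error, n = 3 per group, as for all changes here). For Cyp1b1, Fusobacterium was lower than Helicobacter by a log2 difference of -0.71 (95% interval -0.78 to -0.63, edgeR adjusted p = 3.8e-14), whereas for Cyp1a1 it was higher by 1.75 (1.64 to 1.86, edgeR adjusted p = 7.48e-18). Of the 17 tested members of the aryl hydrocarbon receptor list, 7 were higher in all treated libraries and none lower. The other 3 of the 7 were the receptor gene Ahr itself, the quinone reductase Nqo1 and the amino acid transporter Slc7a5, and Ahr was not kept on the TPM scale. The list's median log2 change was 0.04, 0.28 and 0.14, against 0, 0 and -0.02 for all tested genes, so that the large changes sat in a few members.

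Hypoxia targets gave the largest share of higher genes of any list, with 28 of 38 tested members higher in all treated libraries and 0 lower. Singly, 30 rose and 2 fell with Fusobacterium, 33 rose with Helicobacter and 35 rose with Neisseria, where 32.8%, 10.5% and 25.4% of all tested genes rose. The median changes of the list were 0.48, 1.13 and 2. Of the 28 genes, Plod1 and Rora were not kept on the TPM scale. Bnip3, which targets mitochondria for removal (ENSMUSG00000078566, chromosome 7, 138890836 to 138909519, minus strand), stood at 23.9, 23.4 and 21.9 TPM without bacteria, at 69.4, 84.9 and 82.6 TPM with Fusobacterium, at 171, 168 and 179 TPM with Helicobacter and at 334, 333 and 348 TPM with Neisseria. Egln3, a prolyl hydroxylase that acts on hypoxia-inducible factor and is itself one of its targets, stood at 77.5 to 85.8 TPM without bacteria and at 165 to 182, 291 to 321 and 664 to 718 TPM with Fusobacterium, Helicobacter and Neisseria. In both genes the groups climbed in that order without overlap, and in both each step between bacteria passed the test. The smallest of these steps on the log2 scale was -0.97 for Egln3, between Fusobacterium and Helicobacter, and -1.07 for Bnip3, between Helicobacter and Neisseria (edgeR adjusted p = 1.55e-14 and 3.62e-13).

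Among further hypoxia targets the order of Fusobacterium and Helicobacter varied. Ero1l, an oxidase that forms disulfide bonds in the endoplasmic reticulum, stood at 118, 124 and 112 TPM without bacteria, at 461, 546 and 512 TPM with Fusobacterium, at 453, 515 and 473 TPM with Helicobacter and at 1800, 1940 and 2020 TPM with Neisseria. The Fusobacterium and Helicobacter libraries overlapped, and the log2 difference between them was -0.05 (95% interval -0.16 to 0.05, edgeR adjusted p = 0.337). Vegfa, the growth factor of vessels, was at 28.2 to 32.3 TPM without bacteria and at 99.8 to 104, 80.3 to 96.7 and 168 to 195 TPM with Fusobacterium, Helicobacter and Neisseria. Adm, which encodes the vasodilator adrenomedullin, was at 5.97 to 8.93 TPM and reached 54.6 to 58, 18.3 to 24.5 and 65.7 to 70.5 TPM. Ndrg1, a stress-induced gene, was at 41.1 to 43.3 TPM and reached 153 to 160, 208 to 223 and 542 to 581 TPM. In TPM, Helicobacter gave the lowest treated values of Vegfa (where it overlapped Fusobacterium in scaled CPM) and Adm and the middle ones of Ndrg1.

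Glycolysis followed, with 14 of 23 tested members higher in all treated libraries and 0 lower. They run from uptake and phosphorylation of glucose (Slc2a1, Hk1, Hk2) through the middle steps (Gpi1, Pfkp, Aldoc, Tpi1, Gapdh, Pgk1, Pgam1, Pkm) to lactate export (Slc16a3), with the regulator Pfkfb3 and the glycogen synthase Gys1. The glucose transporter Slc2a1 stood at 79.3, 75.2 and 72.1 TPM without bacteria, at 244, 248 and 260 TPM with Fusobacterium, at 166, 186 and 180 TPM with Helicobacter and at 303, 318 and 326 TPM with Neisseria. Slc16a3, the exporter of lactate, went from 9.4 to 10.3 TPM to 36.7 to 39.5, 55.9 to 62.1 and 105 to 115 TPM in the same order of bacteria. Groups did not overlap in either gene, but Fusobacterium exceeded Helicobacter in the first (log2 difference 0.37, 0.28 to 0.46, edgeR adjusted p = 1.04e-07) and lay below it in the second. Pfkfb3, which makes the activator of phosphofructokinase, was higher by 2.29 ± 0.06, 1.97 ± 0.06 and 3.56 ± 0.06. Slc2a1, Slc16a3 and Pfkfb3 also belong to the hypoxia list. Several of the gene lists share members in this way, so that their counts are not independent. Oxidative phosphorylation, the other main route to ATP, had 0 of 26 tested members on either side, and 3 lower on the TPM scale. On that scale 1561 of 11922 genes that passed a filter on TPM were lower, pancreatic genes set aside. The 3 of 26 are near that background.

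**Figure D2:**
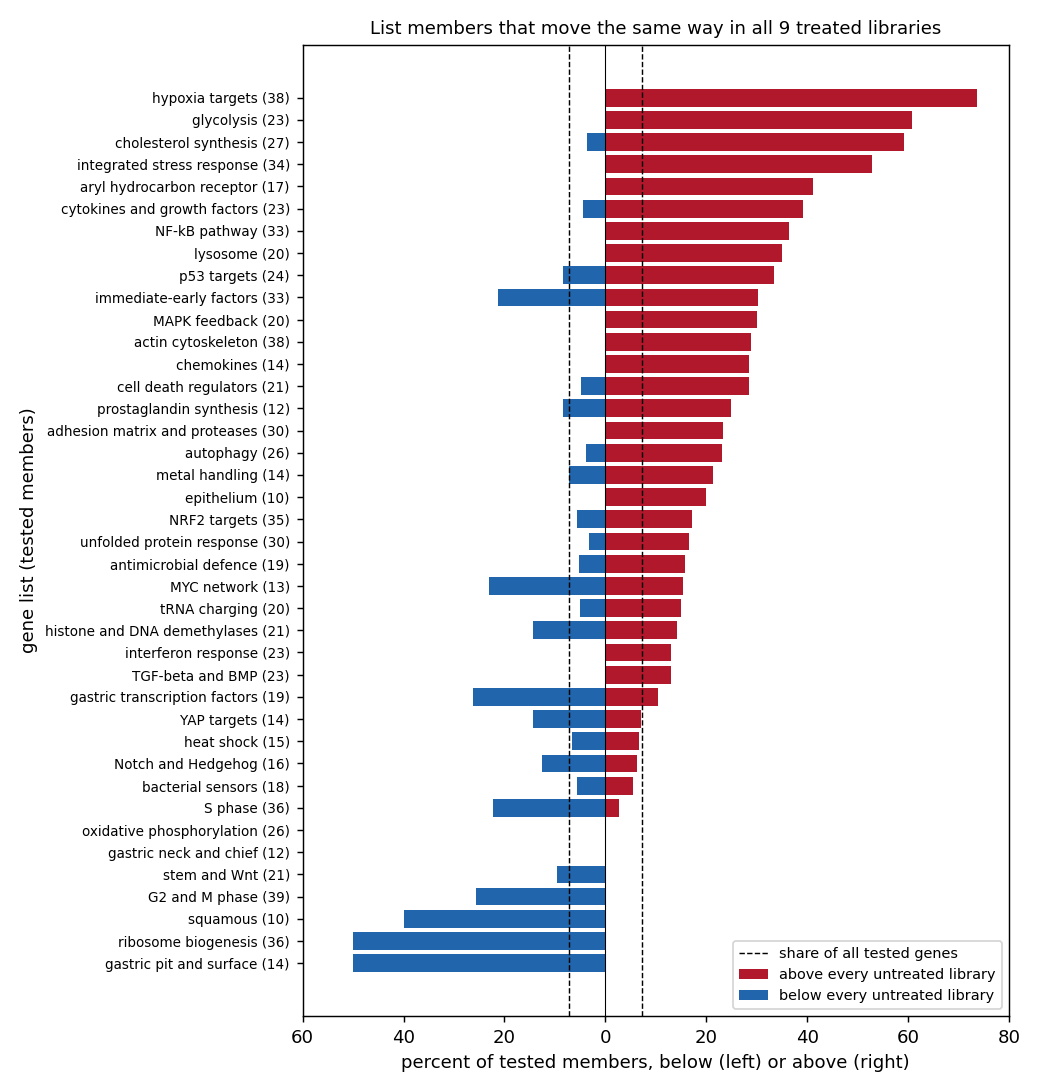
Bars give the percent of tested members of each gene list that lay above (right, red) or below (left, blue) all 3 untreated libraries in all 9 treated libraries, for the 40 lists with at least 10 tested members other than the pancreatic lists, which are not drawn; dashed lines mark 7.22% and 7.19% of all tested genes. Hypoxia targets reach farthest to the right with 28 of 38 members, and ribosome biogenesis and gastric pit and surface genes reach farthest to the left of those drawn with 18 of 36 and 7 of 14.

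The integrated stress response had 18 of 34 tested members higher in all treated libraries and 0 lower, with median changes of 0.32, 0.61 and 1.57. Among its transcription factors were Atf3, Atf4, Ddit3 (CHOP), Cebpg and Jdp2. Among its targets were Trib3, Chac1, Sesn2, Psph, Mthfd2, Ppp1r15a and the amino acid transporters Slc7a5 and Slc6a9. Slc6a9 was not kept on the TPM scale. Chac1, which degrades glutathione (ENSMUSG00000027313, chromosome 2, 119351229 to 119354381, plus strand), stood at 4.2, 4.97 and 2.17 TPM without bacteria, at 49, 50.8 and 46.3 TPM with Fusobacterium, at 50.1, 52 and 47.4 TPM with Helicobacter and at 136, 149 and 154 TPM with Neisseria. Fusobacterium and Helicobacter overlapped in TPM, though not in scaled CPM, with a log2 difference of -0.16 (95% interval -0.34 to 0.02, edgeR adjusted p = 0.103), and Neisseria lay above both. Trib3, a pseudokinase that restrains CHOP and AKT, stood at 4.29, 4.15 and 4.35 TPM without bacteria, at 12.9, 12.7 and 12.4 TPM with Fusobacterium, at 30.3, 34.9 and 32.6 TPM with Helicobacter and at 138, 132 and 143 TPM with Neisseria. Here no groups overlapped, and the log2 difference of Fusobacterium from Helicobacter was -1.49 (95% interval -1.65 to -1.34, edgeR adjusted p = 3.72e-14).

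Ddit3 and Herpud1 were higher everywhere but far more so with Neisseria. Ddit3 stood at 11.7 to 15.3 TPM without bacteria, at 29.4 to 35.3 and 26.8 to 34.4 TPM with Fusobacterium and Helicobacter, and at 342 to 364 TPM with Neisseria. Herpud1, of protein degradation at the endoplasmic reticulum, stood at 80.6 to 88, 134 to 148, 139 to 161 and 946 to 1030 TPM in the same order. Of the wider unfolded protein response list, 5 of 30 tested members were higher in all treated libraries and 1 was lower, with median changes of -0.01, 0.13 and 0.82, and 3 of the 5 (Calr, Edem1 and Creld2) were not kept on the TPM scale. The transfer RNA synthetase list had 3 of 20 members higher (Cars, Nars and Rars) and 1 lower (Wars), and of the 3 only Cars was kept on the TPM scale.

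Some genes of clotting and matrix turnover were higher with all bacteria, and in the pair given here Helicobacter lay closest to the untreated level. Plat, an activator of plasminogen, stood at 107 to 115 TPM without bacteria and at 653 to 672, 130 to 142 and 218 to 238 TPM with Fusobacterium, Helicobacter and Neisseria. F3, tissue factor of blood clotting, stood at 295 to 299 TPM without bacteria and at 468 to 473, 347 to 361 and 480 to 524 TPM. In the list of adhesion, matrix and protease genes, 7 of 30 tested members were higher and 0 lower, but 4 of the 7 (Itgav, Lama3, Plau and Plaur) were not kept on the TPM scale.

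Of the prostaglandin list, 3 of 12 tested members were higher and 1 was lower. Ptgs2, the inducible cyclooxygenase, stood at 180 to 188 TPM without bacteria and at 699 to 703, 265 to 290 and 470 to 505 TPM with Fusobacterium, Helicobacter and Neisseria. Ptges, the synthase that acts after it, went from 9.65, 8.97 and 7.47 TPM to 69, 74.2 and 71.8 TPM with Fusobacterium, 53.5, 53.5 and 53.7 TPM with Helicobacter and 100, 104 and 116 TPM with Neisseria. Both were lowest with Helicobacter among the bacteria, but the highest values came with Fusobacterium for Ptgs2 and with Neisseria for Ptges. Hpgd, the enzyme that breaks prostaglandins down, stood at 12.1 to 13.7 TPM without bacteria and at 8.47 to 9.78, 8.4 to 10.1 and 3.83 to 5.11 TPM. Its changes were -0.54 ± 0.13, -0.37 ± 0.13 and -1.34 ± 0.15. The third higher member was Hpgds, a prostaglandin D synthase.

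**Figure D3:**
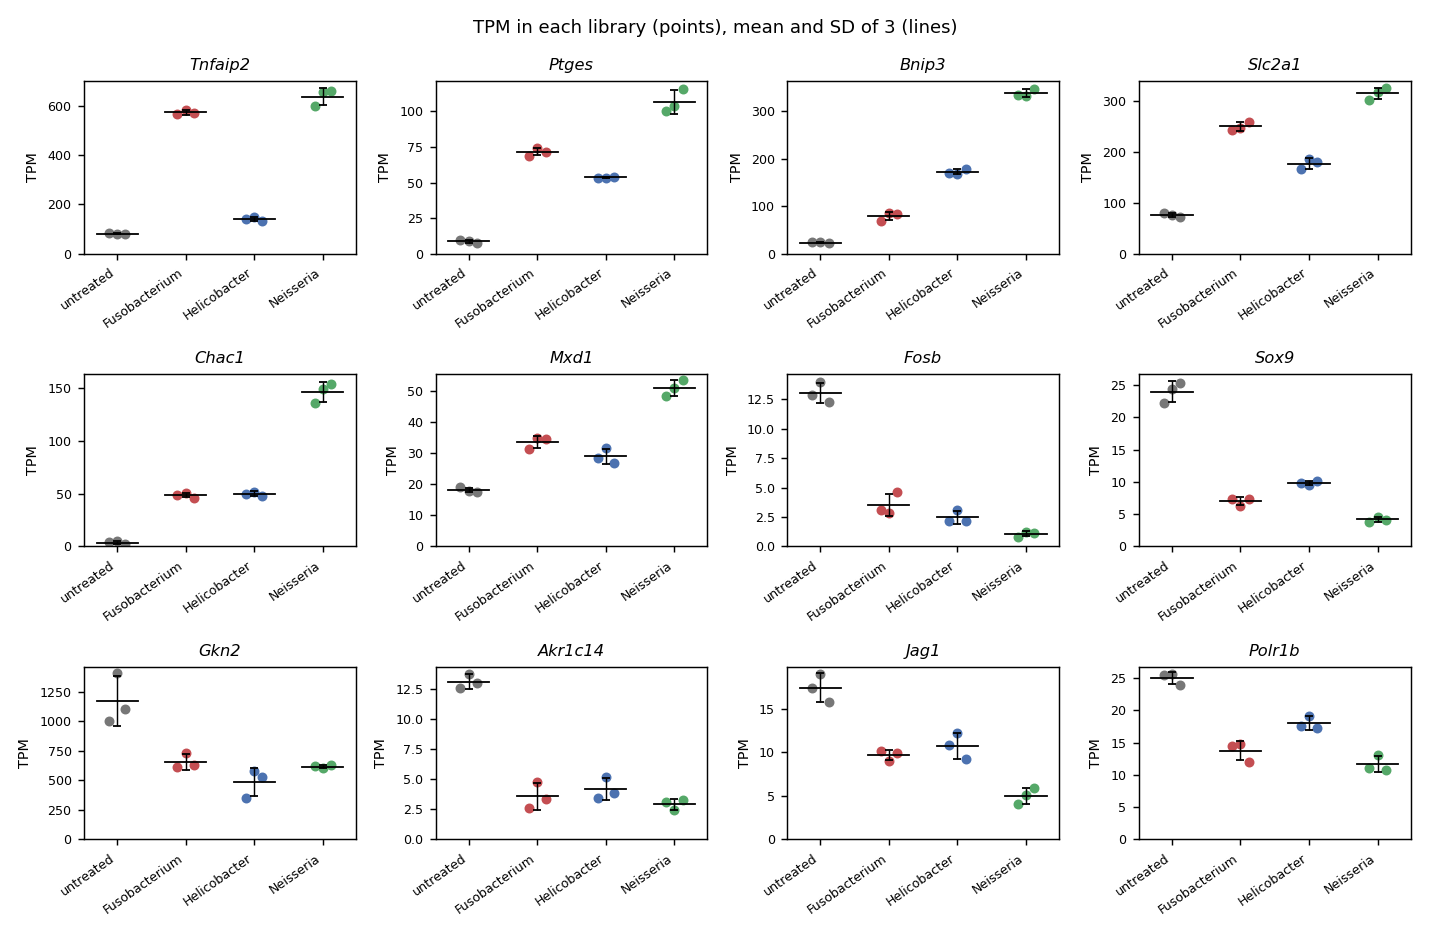
Points are the TPM of each library for 12 genes of the set, and lines are the mean and SD of the 3 libraries in a group. For the 6 higher genes every treated point lies above the untreated points, for the 6 lower genes below, and the order of the bacteria changes from gene to gene, with Bnip3 lowest in Fusobacterium (69.4 to 84.9) and Tnfaip2 lowest in Helicobacter (133 to 149).

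Inflammatory genes were shared less evenly. Of 33 tested NF-kB genes, 12 were higher in all treated libraries and 0 lower, with median changes of 0.73, 0.13 and 1.07. Singly, 26 rose and 3 fell with Fusobacterium, 9 rose with Helicobacter and 29 rose with Neisseria, where 32.8%, 10.5% and 25.4% of all tested genes rose. Nfkbia, the inhibitor that NF-kB induces to end its own action, stood at 82.5, 72.9 and 67.5 TPM without bacteria, at 246, 235 and 258 TPM with Fusobacterium, at 87.7, 90.5 and 88.8 TPM with Helicobacter and at 201, 191 and 199 TPM with Neisseria. The Helicobacter libraries lay close above the untreated range, with a log2 change of 0.36 ± 0.06. Tnfaip2 was at 78.6 to 84.6 TPM without bacteria and at 567 to 584, 133 to 149 and 600 to 660 TPM with Fusobacterium, Helicobacter and Neisseria. Birc3, an inhibitor of apoptosis, was at 11.1 to 12.9 TPM and reached 19.2 to 20.3, 14.3 to 16.5 and 49.9 to 51.4 TPM. Nfkb2, Tnip1 and Zc3h12a were not kept on the TPM scale.

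Among 14 tested chemokine genes, 4 were higher in all treated libraries (Cxcl2, Cxcl5, Cx3cl1 and Ccl5), and Cxcl2 and Cx3cl1 were not kept on the TPM scale. Cxcl5, which draws neutrophils, stood at 1800 to 1850 TPM without bacteria and at 3910 to 4170, 2000 to 2280 and 7460 to 7870 TPM with Fusobacterium, Helicobacter and Neisseria. Cytokines and growth factors had 9 of 23 members higher, namely Il1a, Il1rn, Il17c, Areg, Ereg, Vegfa, Pdgfb, Tgfb1 and Gdf15, and Clcf1 lower. Of the 9, Tgfb1 was not kept on the TPM scale. Ereg, a ligand of the epidermal growth factor receptor, was at 49.5 to 50.6 TPM without bacteria and at 166 to 174, 60 to 66.6 and 76.1 to 80.7 TPM. Nos2, the inducible nitric oxide synthase, is among the 20 genes with the largest smallest-change but rests on few counts outside Neisseria: 0, 4 and 0 in the untreated libraries, 99, 106 and 87 with Fusobacterium, 15, 7 and 6 with Helicobacter and 598, 545 and 531 with Neisseria. No fold is given for it.

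Oxidative and metal stress genes were shared in part. Hmox1, the heme oxygenase, stood at 106, 108 and 101 TPM without bacteria, at 1120, 1110 and 1120 TPM with Fusobacterium, at 164, 187 and 178 TPM with Helicobacter and at 622, 612 and 678 TPM with Neisseria. Its Fusobacterium libraries lay above Helicobacter by a log2 difference of 2.53 (2.43 to 2.63, edgeR adjusted p = 2.73e-22). Sqstm1, an autophagy receptor, was at 275 to 295 TPM without bacteria and at 899 to 917, 340 to 350 and 685 to 738 TPM. The NRF2 target list as a whole had 6 of 35 members higher and 2 lower (G6pdx and Gstm1). Of the 6, Gstp1 and Ftl1 were not kept on the TPM scale, and of the 2, 1 was kept under every scaling. The metallothioneins Mt1 and Mt2, which bind zinc and copper, were higher by 0.85 ± 0.06, 0.50 ± 0.06 and 0.34 ± 0.06, and by 0.89 ± 0.06, 0.38 ± 0.06 and 0.65 ± 0.06.

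Cholesterol synthesis had 16 of 27 tested members higher in all treated libraries, which take in Hmgcs1 of the first steps, Sqle, Lss and Cyp51 of the sterol steps and the feedback genes Insig1 and Insig2. Hmgcs1 was at 240 to 243 TPM without bacteria and at 350 to 383, 311 to 323 and 448 to 462 TPM with Fusobacterium, Helicobacter and Neisseria. Msmo1, a sterol oxidase, was at 214 to 223 TPM and reached 342 to 354, 290 to 302 and 460 to 485 TPM. These changes were modest, 0.49 ± 0.04 to 1.12 ± 0.04 for Hmgcs1, and of the 16 genes 11 were kept on the TPM scale.

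Genes of stress outcome were mixed. Of 24 tested p53 targets, 8 were higher (5 on the TPM scale, without Mdm2, Perp and Polk) and 2 lower, and Gadd45a, which acts in growth arrest and DNA repair, went from 16.5 to 18.6 TPM to 106 to 118, 41.3 to 45.4 and 148 to 157 TPM with Fusobacterium, Helicobacter and Neisseria. Among 21 cell death regulators 6 were higher, with the death-promoting genes Pmaip1 (0.98 ± 0.05 to 1.95 ± 0.05), Bmf (0.71 ± 0.08 to 1.15 ± 0.08), Bcl2l11 and Bid among them, and the protective gene Bcl2 was lower (-0.50 ± 0.09 to -1.22 ± 0.09). Bcl2l11, Bid and Casp4 were not kept on the TPM scale. Of 20 lysosome genes 7 were higher, of which 3 were kept there, and Ctsl, a protease, stood at 164 to 168 TPM without bacteria and at 258 to 274, 186 to 195 and 191 to 196 TPM. Actin cytoskeleton genes had 11 of 38 members higher and 0 lower, 7 of them on the TPM scale as well. The small GTPase genes Rhoc and Rnd1 were higher by 1.24 ± 0.05, 0.47 ± 0.05 and 1.29 ± 0.05, and by 2 ± 0.09, 0.61 ± 0.10 and 2.36 ± 0.09.

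Immediate-early transcription factors went both ways, with 10 of 33 tested members higher and 7 lower. The higher ones were Jun, Jund, Ier3, Ier5, Atf3, Maff, Klf4, Klf6, Zfp36l1 and Btg2, of which Ier5 and Zfp36l1 were not kept on the TPM scale. The lower ones were Fos, Fosb, Egr1, Ier2, Nr4a2, Myc and Zfp36. Fosb, a partner of Jun proteins (ENSMUSG00000003545, chromosome 7, 19302696 to 19310051, minus strand), had the largest smallest-change of the lower set. It stood at 12.9, 14 and 12.3 TPM without bacteria, at 3.11, 2.85 and 4.61 TPM with Fusobacterium, at 2.17, 3.13 and 2.17 TPM with Helicobacter and at 0.827, 1.22 and 1.15 TPM with Neisseria. Fusobacterium and Helicobacter overlapped (log2 difference 0.37, 0.01 to 0.73, edgeR adjusted p = 0.0659), and Neisseria lay below both. Fos stood at 163 to 176 TPM without bacteria and at 118 to 128, 78.2 to 89.8 and 83.4 to 85.2 TPM. Ier3, a gene of cell survival, was on the other side, at 237 to 243 TPM without bacteria and 831 to 890, 362 to 377 and 661 to 668 TPM.

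In the network around Myc, the activators and the antagonists Mxd1 and Mxi1 lay on opposite sides. Myc stood at 85.7, 84.5 and 84.5 TPM without bacteria, at 28.9, 29.1 and 27.2 TPM with Fusobacterium, at 65.6, 68 and 67.2 TPM with Helicobacter and at 42.2, 42.6 and 46.4 TPM with Neisseria, with no overlap between groups. Mycn went from 19 to 21.3 TPM to 5.95 to 7.95, 13.2 to 16 and 3.56 to 4.46 TPM. Mxd1, which competes for their partner Max, went from 17.7 to 19.1 TPM to 31.5 to 35.1, 27 to 31.7 and 48.4 to 53.7 TPM, and Mxi1 was higher by 0.70 ± 0.06, 0.98 ± 0.06 and 1.27 ± 0.06. A further antagonist, Mxd4, was lower, at -1.48 ± 0.06, -0.29 ± 0.06 and -0.93 ± 0.06. These 5 genes of 13 tested in the list were kept under every scaling tried.

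Ribosome biogenesis was the largest lower group, with 18 of 36 tested members lower in all treated libraries and 0 higher. Taken singly, Fusobacterium lowered 27 of the 36, Helicobacter 13 and Neisseria 24, against 32.4%, 8.36% and 25.5% of all tested genes. Members that passed as higher were 4, 1 and 4, against 32.8%, 10.5% and 25.4%. The median changes of the list were -0.49, -0.12 and -0.31. Its members span the enzyme that transcribes ribosomal DNA (Polr1a, Polr1b, with the factors Ubtf and Tcof1), the modification of ribosomal RNA (Dkc1, Nop56, Nop2) and assembly (Rrs1, Rrp12, Heatr1, Utp20, Nol6). Polr1b stood at 25.5, 25.6 and 23.9 TPM without bacteria, at 14.5, 14.8 and 12 TPM with Fusobacterium, at 17.6, 19.2 and 17.3 TPM with Helicobacter and at 11.1, 13.1 and 10.8 TPM with Neisseria. Fusobacterium and Neisseria overlapped and Helicobacter lay between them and the untreated libraries. Rrs1 went from 73.1 to 77.2 TPM to 35.2 to 38.3, 53.9 to 59 and 35.5 to 40.2 TPM.

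Of cell cycle genes, 10 of 39 tested members of the G2 and M phase list and 8 of 36 of the S phase list were lower, and Rfc4 of the S phase list was higher. Kif20b, a motor of cytokinesis, went from 25.9 to 27.7 TPM to 13.2 to 13.7, 18.7 to 21.6 and 10.7 to 13 TPM with Fusobacterium, Helicobacter and Neisseria. For the G2 and M phase list, 36 members passed as lower for Fusobacterium, 4 for Helicobacter and 32 for Neisseria, with medians of -0.58, -0.02 and -0.42, beside 32.4%, 8.36% and 25.5% of all tested genes, so that the Helicobacter count of 4 of 39 is near the background. The replication licensing gene Mcm5 lay just inside the rule, with its highest treated library and its lowest untreated library both at 113.2 CPM. On the TPM scale 18 and 14 members of the lists were lower, where more of all genes were lower too (1561 of 11922). Under every scaling tried, all 10 of the G2 and M phase genes stayed lower, but only 5 of the 8 S phase genes did.

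Genes of gastric identity were lower in part. Of 14 tested genes of pit and surface mucous cells, 7 were lower and 0 higher, with Gkn1, Gkn2, Muc5ac, Psca, Capn8, Dpcr1 and Sult1c2. On the TPM scale 11 of them were lower, beside 1561 of 11922 genes on that scale. No member of the list of neck and chief cells (12 tested) was on either side. Gkn2, a secreted protein of surface cells (ENSMUSG00000030049, chromosome 6, 87373357 to 87379497), stood at 1000, 1410 and 1110 TPM without bacteria, at 614, 732 and 627 TPM with Fusobacterium, at 351, 578 and 533 TPM with Helicobacter and at 623, 605 and 627 TPM with Neisseria. Fusobacterium and Neisseria overlapped and Helicobacter lay below them in TPM, and no pair differed past the threshold (edgeR adjusted p = 0.0972 to 0.52). Psca, a surface antigen of these cells, was lower, at -0.59 ± 0.06, -0.25 ± 0.06 and -0.76 ± 0.06. The pancreatic transcripts above move with this list in the untreated libraries, and their part in its values was not tested. In Helicobacter replicate 1, which holds them, Gkn2 was at its lowest. All 7 genes were lower without that library too, but the rule fixes this in advance and nothing is read from it.

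Among transcription factors of the stomach, Sox2, Sox9, Gata4, Gata5 and Hnf4g were lower and Klf4 and Elf3 higher, of 19 tested. Sox9, of progenitor cells, stood at 22.2, 24.4 and 25.4 TPM without bacteria, at 7.38, 6.27 and 7.34 TPM with Fusobacterium, at 9.79, 9.57 and 10.2 TPM with Helicobacter and at 3.85, 4.64 and 4.16 TPM with Neisseria. Sox2, which marks foregut identity, went from 23.9 to 26.2 TPM to 6.68 to 7.21, 15.7 to 17.2 and 5.33 to 6.42 TPM. The groups did not overlap for Sox9, while for Sox2 Fusobacterium and Neisseria lay apart in TPM and overlapped in scaled CPM. On the TPM scale 7 of the list were lower, and with library totals 8, beside 1561 of 11922 and 1462 of 12805 genes on those scales. Gata4 was lower to nearly one degree, by -0.28 ± 0.06, -0.29 ± 0.06 and -0.30 ± 0.06, and did not differ past the threshold among the bacteria (edgeR adjusted p = 0.961, with 95% intervals of the pairwise log2 differences inside -0.11 to 0.14). Klf4, of differentiated surface epithelium, was higher by 1.01 ± 0.05, 0.38 ± 0.05 and 0.80 ± 0.05. Among signalling genes, the Notch ligand Jag1 went from 15.7 to 19 TPM to 9.02 to 10.1, 9.24 to 12.2 and 4.02 to 5.84 TPM, and the morphogen Bmp2 from 3.04 to 3.53 TPM to 6.81 to 6.9, 9.67 to 12.4 and 22.1 to 26.1 TPM.

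Other genes with a large smallest-change in the lower set follow. Akr1c14, a hydroxysteroid dehydrogenase, stood at 12.6, 13.8 and 13 TPM without bacteria, at 2.62, 4.76 and 3.35 TPM with Fusobacterium, at 3.42, 5.19 and 3.9 TPM with Helicobacter and at 3.08, 2.43 and 3.31 TPM with Neisseria. Fusobacterium overlapped both other bacteria in TPM, and in scaled CPM all bacteria overlapped, and no pair differed past the threshold, with 95% intervals of the log2 differences between -0.72 and 0.77. Adh1, an alcohol dehydrogenase, went from 26 to 29.3 TPM to 10.6 to 13.3, 13.2 to 14.7 and 9.17 to 11 TPM, and Acss1, a mitochondrial acetyl-CoA synthetase, from 30.9 to 33.7 TPM to 12.1 to 14.5, 17.3 to 23.5 and 12 to 15 TPM. Igfbp5, a binding protein of insulin-like growth factors, went from 4.86 to 6.37 TPM to 0.696 to 1.05, 2.02 to 2.87 and 0.814 to 1.29 TPM. The antimicrobial lectin gene Reg3b was low throughout, at 4.65 to 6.93 TPM without bacteria and 0.957 to 3.83, 0.642 to 1.98 and 1.02 to 3.01 TPM with them.

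The bacteria were also compared with each other within the set. The rule made no contrast between bacteria, but it chose the genes on the same treated values, so that the splits by direction below are descriptions of the set, and the shares over all tested genes, which mix genes that rose and fell, are not what such a set would give by itself. Of the 924 higher genes, 779 (84.3%) differed among the 3 bacteria, and of the 893 lower genes 706 (79.1%) did, in edgeR's quasi-likelihood F test at an adjusted p of 0.05, where 76.5% of all tested genes did. Among the higher genes, 484 were higher with Fusobacterium than with Helicobacter and 104 the other way (background 31.8% and 33.5%). Between Neisseria and Helicobacter, 570 were higher with Neisseria and 9 with Helicobacter (background 19.0% and 17.7%), and between Fusobacterium and Neisseria 260 were higher with Fusobacterium and 384 with Neisseria (background 32.5% and 34.1%).

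Among the lower genes, 529 were lower with Fusobacterium than with Helicobacter and 33 the other way (background 33.5% and 31.8%), and 444 were lower with Neisseria than with Helicobacter and 12 the other way (background 17.7% and 19.0%). Between Fusobacterium and Neisseria, 348 were lower with Fusobacterium and 222 with Neisseria (background 34.1% and 32.5%). The median log2 change of the higher genes was 0.53, 0.30 and 0.60 with Fusobacterium, Helicobacter and Neisseria, and that of the lower genes -0.57, -0.25 and -0.48.

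**Figure D4:**
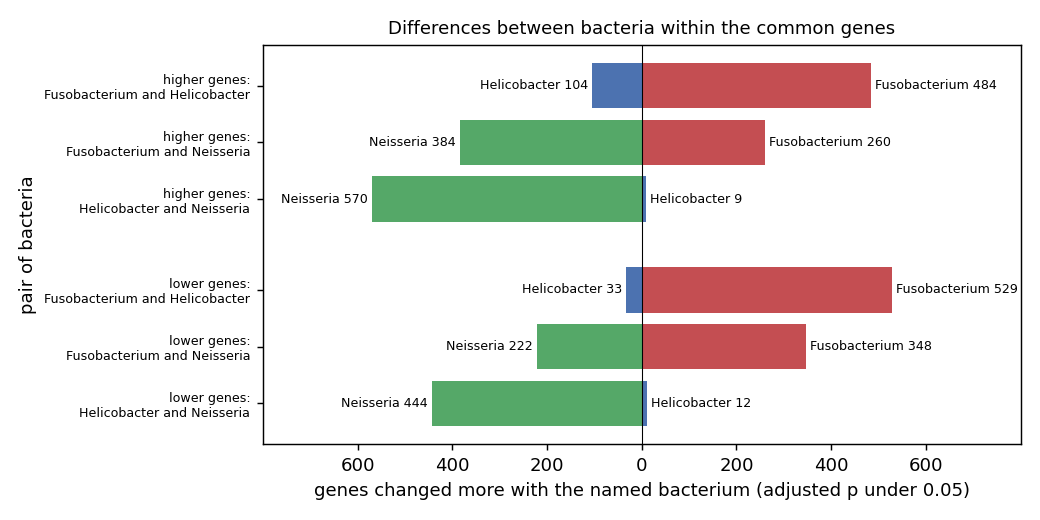
Bars count genes of the set that changed more with one bacterium than with the other of a pair, at an adjusted p under 0.05 in edgeR's quasi-likelihood test, for the 924 higher and 893 lower genes. The bars for Helicobacter are the short ones in its pairs (104 and 9 higher genes, 33 and 12 lower genes).

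**Figure D5:**
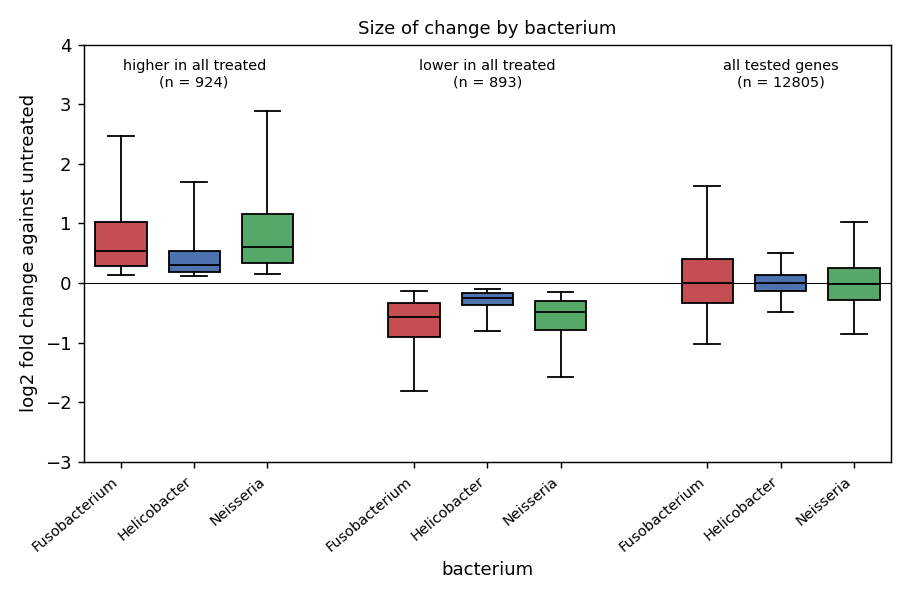
Boxes give the quartiles and median of the log2 fold change against untreated organoids, with whiskers at the 5th and 95th percentiles, for the higher genes, the lower genes and all tested genes. The medians of the higher genes are 0.53, 0.30 and 0.60 and those of the lower genes -0.57, -0.25 and -0.48, while all tested genes centre on 0, 0 and -0.02.

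Of the 68 genes higher by at least 2-fold with each bacterium, 53 differed among the bacteria, a share near the 76.5% of all tested genes, and the largest change came with Neisseria in 51, Fusobacterium in 16 and Helicobacter in 1. Of the 17 genes lower by that much, 6 differed, with the largest change under Fusobacterium in 10, Neisseria in 5 and Helicobacter in 2. Among the genes changed at least 2-fold with each, those with the smallest range over the bacteria included Rgs11, a regulator of G protein signalling, Rcor2, a corepressor, and Aldoc, the aldolase of glycolysis, and as they were chosen for that their differences carry no test. Rgs11 stood at 2.72, 1.46 and 2.9 TPM without bacteria, at 7.94, 5.62 and 5.74 TPM with Fusobacterium, at 4.51, 6.1 and 4.92 TPM with Helicobacter and at 4.72, 4.49 and 6.45 TPM with Neisseria. All bacteria overlapped for Rgs11, with pairwise log2 differences of -0.12 to 0.19. Rcor2 was at 2.16 to 3.39 TPM without bacteria and at 7.81 to 10.4, 8.1 to 9.06 and 8.57 to 12 TPM, with differences of 0.01 between Fusobacterium and Helicobacter and -0.37 and -0.38 of these from Neisseria. For Aldoc the log2 difference was -0.21 for Fusobacterium minus Helicobacter, -0.59 for Fusobacterium minus Neisseria and -0.37 for Helicobacter minus Neisseria. At the other end, chosen for the largest range, Ddit3 and Trib3 had log2 differences of Fusobacterium from Neisseria of -3.71 and -3.68.

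The set rests on where the untreated level is placed. With TMM scaling the median log2 change of all tested genes was -0.02 with Neisseria and 0 with Helicobacter, and with scaling by the library total alone it was -0.18 and -0.06. With TPM, whose scaling is also by a fixed sum, it was -0.20 and -0.09. Of the genes past the threshold for the mean of all treated groups against untreated organoids, 3200 were higher and 3182 lower (25.0% and 24.8% of tested genes, 50.1% of the calls higher), but 35.5% were higher with library totals and 33.4% with log2(TPM + 1) in limma. Under all 5 scalings tried, 496 of the 924 higher genes (53.7%) and 807 of the 893 lower genes (90.4%) stayed in the set, as did 65 of the 68 and all 17 of those changed at least 2-fold. Near the limit lay Ppp2r2a, with a lowest treated value of 143.7 against a highest untreated value of 143.6 CPM, and it was not kept under every scaling. Just outside lay Cttn, whose highest treated and lowest untreated library were both at 466.9.

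Higher and lower genes differed in what the annotation and the sequence say of them, given here as a description. The median genomic span, from the gene coordinates deposited with the counts, was 22 kb for the higher genes, 30.9 kb for the lower genes and 23.7 kb for all tested genes. Spans over 100 kb were held by 7.36%, 14% and 12.8% of them. The median level without bacteria was 31.1 TPM for the higher genes, 21.6 TPM for the lower and 16.9 TPM for all tested genes.

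A promoter was found in the RefSeq table for 732 higher, 690 lower and 9959 tested genes, and motifs were searched on both strands of the same 300-base window. The hypoxia core ACGTG lay in 30.5% of the higher and 24.6% of the lower genes, against 25.6% of tested genes and 19.6% of all 32851 promoters in the table. The aryl hydrocarbon receptor core TNGCGTG lay in 9.84%, 7.25%, 8.2% and 5.07%, the composite element TGATGNAA in 3.28%, 1.74%, 2.18% and 3.97%, and the NF-kB consensus in 7.51%, 4.64%, 5.47% and 4.79% of the same sets. The E-box CACGTG, which contains ACGTG on both strands, lay in 10.5%, 11.7%, 10% and 7.15%. Median promoter GC content was 62.3% in the higher, 60.7% in the lower and 61% in the tested genes, and the part of base composition in the motif shares was not tested.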

How the data were processed

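RNA was sequenced in 12 libraries, 3 in each of 4 groups given by the labels. Per the file headers, the authors deposited total counts per gene, with no normalization, and TPM values (transcript levels scaled for gene length to a fixed sum per library). The genome build was GRCm38, per the submitters' processing notes. Neither the aligner nor how reads were assigned to genes and strands is given in the sources used here, so that overlapping and antisense genes cannot be told apart, and near-identical copies may share reads. A further 24 deposited columns of RPKM and CPM values were not used. Totals ran from 16955155 to 23236260 counts. Replicates differed by more than counting noise, with a chi-square per degree of freedom of 2.26 to 11.

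Counts were analysed with edgeR 4.0.16 in R 4.3.3: all 12 libraries in 1 robust quasi-likelihood model with a coefficient per group, after TMM scaling and the default filter on low counts (12805 genes kept, 99.96% of counts). P-values are two-sided and adjusted by Benjamini-Hochberg over all tested genes, with a threshold of 0.05. Each standard error is the absolute log2 change over the root of its F value. Biological variation between replicates was 5.71% (common coefficient). The script was tested on simulated data. The members, the 46 gene lists and the naming rule were chosen with earlier results of these data known. The rule names the 20 higher and 20 lower genes with a mean of at least 5 TPM that passed in each comparison and had the largest smallest-change, up to 5 members per list, the 6 genes most and 6 least alike over bacteria among those changed at least 2-fold, and those nearest the limit of the rule. Not every such gene is described, and other list members are named without values. The libraries were not treated as paired by replicate number, and the labels do not say whether they are. Deviations of the 18 pairs with the same number had correlations of -0.543 to 0.614, of which 10 were over 0.1. These values do not settle whether the libraries are paired. The highest was between Helicobacter replicate 3 and untreated replicate 3, the libraries whose headers carry the mark L0. Alternatives were other scalings, other filters on low counts, DESeq2 1.42.0, limma 3.58.1 on log2 TPM with pseudocounts of 1, 0.1 and 5, a replicate block, each library left out in turn and, chosen after seeing the data, only libraries whose headers carry the mark L1. Which scalings kept each list member was also worked out after seeing the data.
Some genes that meet the rule are not reported here.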

Additional observations from a re-analysis of the deposited data

How the results depend on the processing

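Most results held, and the share of higher against lower genes depended on the scaling. With library totals, 1462 genes were lower in all treated libraries and 845 of them passed in each comparison. With limma on TPM, 508 were higher and 1561 lower, and with pseudocounts of 1, 0.1 and 5 TPM those passing in each comparison were 369, 376 and 357 higher and 896, 857 and 958 lower. With 0.1 TPM, 2067 genes were higher in the mean of the treated groups. With only libraries marked L1, 1438 were lower, where fewer libraries had to clear the rule; untreated replicate 3 and Helicobacter replicate 3 carry L0. The cause of the shift with scaling was not tested.

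Leaving out 1 library at a time gave 948 to 1227 higher and 914 to 1312 lower genes, where fewer libraries make the rule easier to meet. The most came without untreated replicate 3. Without untreated replicate 1 or 2 there were 1099 higher and 1119 lower genes, and the reason for this difference was not tested. Those passing in each comparison were 505 to 663 and 323 to 580, the last fewest without untreated replicate 2. In the mean of treated groups 2647 to 3324 were higher and 2652 to 3309 lower. Genes differing among bacteria were 745 to 776 of the higher and 682 to 709 of the lower. By pair they were 547 to 586 and 528 to 568 for Fusobacterium and Helicobacter, 611 to 652 and 520 to 576 for Fusobacterium and Neisseria, and 537 to 578 and 393 to 457 for Helicobacter and Neisseria.

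With the replicate block, 627 higher and 484 lower genes passed in each comparison, and 775 and 702 differed among the bacteria. No direction reversed in any alternative. Of the values of named genes under alternatives, 3835 kept their call, 15 lost it and 2 gained it, all in genes at the limit of the rule, such as Ppp2r2a, Cttn, Garem2 and Hist2h2aa2. Counts of list members stayed within 1.5 times in 1857 cases and moved further in 167. Genes with few counts, such as Nos2 without Neisseria, limit what the depth can show.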

Other observations

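Some genes of the higher set were nearly silent without bacteria. Chosen after their values were seen, 15 genes had a mean below 1 TPM in untreated organoids and at least a 4-fold higher fitted level with each bacterium. They include Cyp1a1, Ahrr and Nos2, described above, and also the calcium sensor Syt1, the neurofilament gene Nefl, the kinase Camk2a, the glutamate transporter Slc1a2 and the potassium channel subunit Kcnab2. Nefl had 3, 5 and 7 counts without bacteria, 128, 122 and 136 with Fusobacterium, 45, 50 and 46 with Helicobacter and 52, 64 and 57 with Neisseria, so that the treated libraries lay well clear of the untreated ones. Camk2a had 5, 5 and 6 counts without bacteria, 35, 27 and 28 with Fusobacterium, 7, 42 and 27 with Helicobacter and 42, 40 and 55 with Neisseria, and its first Helicobacter library was close to the untreated ones. Loxl2, a lysyl oxidase that acts on collagen, had 9, 4 and 6 counts without bacteria, 33, 32 and 22 with Fusobacterium, 26, 37 and 30 with Helicobacter and 73, 69 and 97 with Neisseria. Klb, a co-receptor of fibroblast growth factors, had 2 counts over the 3 untreated libraries, and 110, 40 and 44 over those with Fusobacterium, Helicobacter and Neisseria. At such counts the order of the bacteria is uncertain.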
